A study of Mus musculus with 20 samples.

Results

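The genes described here belong to the axis that runs from interleukin-22 (IL-22) to STAT3 in the intestinal epithelium, and they were chosen by name: Il22ra1, Il10rb, Stat3, Socs3, Fut2, Saa1, and Nos2. Of these 7 genes, 6 were analysed among the 12701 genes of the proximal colon (PC) count table, and Nos2 was not analysed here. RNA had been sequenced from 20 C57BL/6 mice, an inbred laboratory strain, with 1 library per mouse and 5 mice on each of 4 diets. From weaning at 3 weeks of age, all mice ate the Total Western Diet (TWD), a purified diet that mirrors the nutrient intake of American adults, for 6 weeks. For the next 3 weeks, the controls (0% RPS) stayed on the TWD alone, and the other groups received resistant potato starch (RPS) in the TWD at 2, 5, or 10%. RPS is a raw starch that reaches the large intestine and is fermented there. No infection, drug, or genetic change was applied to any group, and the TWD was common to all of them.

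IL-22 is a cytokine made mostly by innate lymphocytes and T cells, and it acts on epithelial cells because these carry its receptor. The receptor pairs IL22RA1, the chain that gives it its specificity, with IL10RB, a chain shared with other cytokine receptors, and it signals through the kinases JAK1 and TYK2 to the transcription factor STAT3. STAT3 induces SOCS3, which shuts the signal down, and in the gut the axis is known for inducing antimicrobial lectins of the Reg3 family, serum amyloid A, and the fucosyltransferase FUT2. The nitric oxide synthase NOS2 is counted among its epithelial responses as well. Fucose that FUT2 adds to epithelial surface glycans is used by gut bacteria.

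Each library came from a 1-cm segment of whole tissue, so a change in the number of cells of a type and a change in RNA per cell cannot be told apart. Library totals were 20581013 to 35083751 counts. All 8 epithelial markers (Epcam, Cdh1, Krt8, Krt18, Krt19, Krt20, Vil1, and Cldn7) were detected in every library, with a summed level of 301210 to 432615 normalised counts, as were the 7 smooth muscle markers (120668 to 287275). Of 8 markers of T cells and innate lymphocytes, 1 (Thy1) was analysed, and none of 6 neutrophil markers was, so the cells that make IL-22 could not be followed, nor was Il22 analysed here. Replicate 2 of the 0% RPS diet stood apart, with the lowest sum of absorptive colonocyte markers (154344, against 318642 to 445260 in the other controls) and the highest of smooth muscle markers (287275). Levels are given as normalised counts, which are counts divided by a size factor per library. A gene was called changed where the adjusted p did not exceed 0.05 and the level differed by at least 1.5-fold (DESeq2, all 20 libraries in 1 fit).

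The genes lie on 4 chromosomes in the assembly GRCm39. Il22ra1 spans chr4:135455428-135479451 and Il10rb chr16:91203012-91224600, both on the plus strand. Stat3 (chr11:100775924-100830450), Socs3 (chr11:117856905-117860898), Fut2 (chr7:45298015-45315818), and Saa1 (chr7:46389916-46392547) are on the minus strand. The 250 bases before the start of each gene's canonical transcript were searched for TTCNNNGAA, the core that STAT proteins recognise, and for TTCCNGGAA, a stricter form contained in it. For Socs3 and Stat3 this start lies inside the span given above, which longer transcripts extend, so their windows overlap it. Both motifs read the same on the 2 strands. Among the 12681 promoters of analysed genes, 6.36% held the first and 1.06% the second. The windows of Il22ra1, Il10rb, Stat3, Fut2, and Saa1 held neither. The window of Socs3 held the first form once, starting 223 bases before the start site. That site is shown because it was the only match among the 6 genes, and the Fut2 window because Fut2 was the gene called changed. The capitals mark the match:
Socs3 site, chr11:117860328-117860356, minus strand: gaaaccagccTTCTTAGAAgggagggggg
Fut2 promoter, chr7:45315819-45316068, minus strand: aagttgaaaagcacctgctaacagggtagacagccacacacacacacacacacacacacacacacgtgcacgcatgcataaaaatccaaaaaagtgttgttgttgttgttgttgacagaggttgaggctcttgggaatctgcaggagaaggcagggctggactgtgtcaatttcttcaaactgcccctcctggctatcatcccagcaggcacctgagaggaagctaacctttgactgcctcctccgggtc
These are matches of letters in the reference sequence and carry no measurement of binding.

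Per kilobase of exon, the mean level over the 20 libraries was highest for Saa1 (3930 normalised counts per kb) and next for Fut2 (1176). Stat3 (399), Il10rb (313), Socs3 (238), and Il22ra1 (174) were lower. Raw counts were 233 or more in every library for each of the 6 genes. The genes differed widely in the spread between mice. From the lowest to the highest of the 20 libraries, Il10rb varied 1.24-fold, Stat3 1.77-fold, Il22ra1 1.98-fold, Fut2 3.08-fold, and Saa1 3.54-fold. Socs3 varied 10.1-fold, more than any other gene of the axis.

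**Figure D1:**
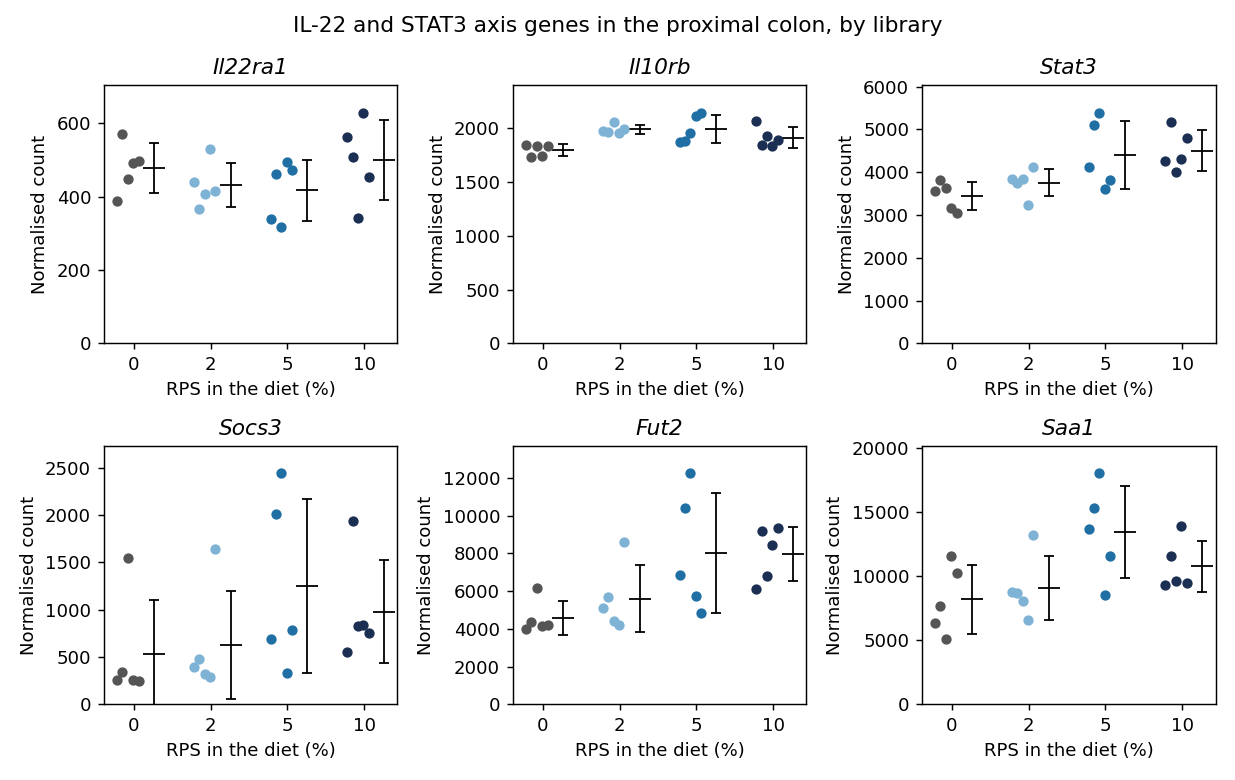
Normalised count (y axis, from 0) of the 6 genes in each library, by percentage of RPS in the diet (x axis). Each point is 1 mouse (n = 5 per diet), and the bars beside the points give the mean ± SD, of which the lower end for Socs3 at 0% RPS is cut off at 0. Fut2 and Stat3 lie higher at 10% than at 0% RPS, while 1 to 2 mice of each diet stand far above the others for Socs3.

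Neither receptor chain was called changed on any diet. Il22ra1 had 387, 570, 447, 492, and 497 normalised counts in the 5 libraries without RPS. It had 440, 366, 407, 528, and 414 at 2% RPS, 339, 461, 317, 495, and 473 at 5% RPS, and 563, 507, 342, 629, and 454 at 10% RPS. The diets overlapped throughout. Compared with 0% RPS, the log2 fold change was −0.15 ± 0.16 (SE) at 2%, −0.20 ± 0.16 at 5%, and 0.06 ± 0.16 at 10% RPS (DESeq2 adjusted p = 0.825, 0.545, and 0.865). The 95% interval at 10% RPS ran from 0.839-fold to 1.30-fold, so a rise or fall of 1.5-fold lay outside it.

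Il10rb was the least variable gene of the axis. It stood at 1838, 1730, 1829, 1740, and 1828 normalised counts without RPS and at 1967, 1966, 2051, 1956, and 1985 with 2% RPS. With 5% RPS it had 1865, 1878, 1953, 2107, and 2141 and with 10% RPS 2065, 1843, 1929, 1828, and 1886. All 5 mice on 2% and all 5 on 5% RPS were above every mouse on 0% RPS, a separation that was not counted over all genes. The diets lay close together. The fold change was 1.11 at both levels and did not pass the adjustment over all genes (DESeq2 adjusted p = 0.368 and 0.0695), in comparisons where 0.0239% and 0.438% of all genes tested were called. At 10% RPS the fold was 1.07 (adjusted p = 0.286), and 4 of 5 mice were above the highest control. About 25.2% of the 50-base windows of Il10rb transcripts also occur in other genes, mainly in Gm21970, which overlaps it on the same strand.

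The other receptors and kinases of the pathway were also not called. Of 15 listed genes, 11 were analysed, and none was called at 2, 5, or 10% RPS compared with 0% RPS. Among all genes tested, 0.0239%, 0.438%, and 0.917% were called, so 0 calls among 11 genes do not set this list apart. The median log2 fold change of the 11 was −0.11 at 5% and −0.06 at 10% RPS, beside medians over all genes of −0.01 and 0.00. Jak1 and Tyk2, the kinases of the IL-22 receptor, had log2 fold changes of 0.10 and −0.10 at 10% RPS (DESeq2 adjusted p = 0.207 and 0.480). Il22ra2, a soluble receptor that binds IL-22 and blocks it, was low, with 44.1 to 167 normalised counts, and its log2 fold change was 0.24 ± 0.34 at 10% RPS (adjusted p = 0.736).

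Stat3, the transcription factor of the axis, had 3552, 3809, 3641, 3159, and 3051 normalised counts without RPS and 3844, 3753, 3846, 3234, and 4113 with 2% RPS. It reached 4118, 5101, 5391, 3601, and 3812 with 5% RPS and 4258, 5181, 3997, 4301, and 4793 with 10% RPS. At 10% RPS every mouse was above every control, a separation that was not counted over all genes, while at 5% RPS 4 of 5 were. The mean was 3443 ± 324 (SD, n = 5) without RPS and 4506 ± 475 with 10% RPS. Compared with 0% RPS, the fold change was 1.09 at 2%, 1.28 at 5%, and 1.31 at 10% RPS (DESeq2 adjusted p = 0.767, 0.0586, and 0.0190). The change at 10% RPS thus passed the threshold for p but not that of 1.5-fold, and edgeR gave an adjusted p of 0.0732. When each mouse of the diets compared was left out in turn, the DESeq2 adjusted p was 0.0106 to 0.231 at 5% RPS. At 10% RPS it was 0.00734 to 0.0933, and 0.00600 to 0.311 over 8 alternative settings. Without replicate 2 of the 0% RPS diet, the adjusted p at 5% RPS was 0.0263.

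Over all 20 libraries the level of Stat3 rose with the percentage of RPS. The slope was 0.04 ± 0.01 (SE) on the log2 scale per percent of RPS (DESeq2 adjusted p = 0.0131). In the same trend test, 2 of the 6 genes were called, Stat3 and Fut2, where 4.29% of all genes tested were called. edgeR gave an adjusted p of 0.0620 for Stat3. DESeq2 gave 0.0559 once replicate 5 at 10% RPS was omitted. Among the diets that contained RPS, the slope was 0.03 (adjusted p = 0.394). The related factors Stat5a, Stat5b, and Stat6 had log2 fold changes of −0.11 to 0.06 at 10% RPS and were not called. Stat3 overlaps Stat5a and Gm46295 on the opposite strand, and 6.23% of its 50-base windows are shared with other genes. Whether the counting used strand is not given in the sources used here.

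Socs3, the feedback inhibitor that STAT3 induces, differed 3.49-fold to 7.28-fold between the mice of a single diet. Without RPS it had 260, 346, 1546, 258, and 242 normalised counts, and with 2% RPS 398, 474, 322, 285, and 1642. With 5% RPS it had 686, 2013, 2440, 335, and 788 and with 10% RPS 553, 1932, 823, 832, and 752. There were 15 libraries at or below 832, and 5 between 1546 and 2440, with none in between. These 5 were replicates 2 and 3 at 5% RPS, replicate 2 at 10% RPS, replicate 5 at 2% RPS, and replicate 3 at 0% RPS, so each diet held at least 1. The median was 260 without RPS and 398, 788, and 823 at 2, 5, and 10% RPS.

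The difference in Socs3 between diets did not exceed the spread between mice. The log2 fold change compared with 0% RPS was 0.23 ± 0.65 (SE) at 2%, 1.24 ± 0.65 at 5%, and 0.88 ± 0.65 at 10% RPS (DESeq2 adjusted p = 0.941, 0.319, and 0.464). The 95% interval at 10% RPS ran from 0.760-fold to 4.48-fold, so neither no change nor a rise of several fold lay outside it. Single mice moved the estimate in both directions. Without replicate 3 of the 0% RPS diet, which had 1546, the log2 fold change was 2.18 at 5% and 1.82 at 10% RPS, and both were called (adjusted p = 0.0162 and 0.0351). That was the only 1 of 10 such fits called at each level. Without replicate 3 at 5% RPS, the log2 fold change at 5% RPS was 0.85. Without replicate 2 at 10% RPS, that at 10% RPS was 0.48. The DESeq2 adjusted p over these fits reached 0.594 at 5% and 0.731 at 10% RPS. With the highest control set aside, all 5 mice on 10% RPS were above the other 4, of which the highest had 346.

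The other regulators of STAT3 signalling were not called. Of 8 listed genes, 7 were analysed (Socs2, Cish, Ptpn1, Ptpn2, Ptpn6, Ptpn11, and Pias3). None of the 7 was called in any comparison with 0% RPS or in the trend, where at most 4.29% of all genes tested were called. The log2 fold changes of the 7 ran from −0.14 to 0.09 at 10% RPS. The phosphatases Ptpn2 and Ptpn11 had log2 fold changes of 0.05 and 0.03 there (DESeq2 adjusted p = 0.760 and 0.833).

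Fut2, the enzyme that places terminal fucose on epithelial glycans, was the 1 gene of the 6 called at 5% RPS and again at 10% RPS. It had 3977, 4349, 6166, 4128, and 4186 normalised counts without RPS and 5088, 5670, 4406, 4217, and 8578 with 2% RPS. It reached 6871, 10416, 12242, 5741, and 4817 with 5% RPS and 6126, 9180, 6821, 8450, and 9332 with 10% RPS. At 10% RPS, 4 of 5 mice were above the highest control, replicate 3, and the remaining mouse was above the other 4 controls. At 5% RPS, 3 of 5 were above it and the 5 mice spread over 2.54-fold.

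The mean of Fut2 was 4561 ± 907 (SD, n = 5) without RPS, 5592 ± 1766 with 2%, 8017 ± 3176 with 5%, and 7982 ± 1438 with 10% RPS. Compared with 0% RPS, the fold change was 1.23 at 2% RPS (DESeq2 adjusted p = 0.726), 1.76 at 5% RPS (95% interval 1.29 to 2.40, adjusted p = 0.0325), and 1.75 at 10% RPS (1.28 to 2.39, adjusted p = 0.0190). Among all genes tested, 0.438% were called at 5% RPS and 0.917% at 10% RPS. The log2 slope over the 4 diets was 0.08 ± 0.03 (SE) per percent of RPS (adjusted p = 0.0497).

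These calls of Fut2 lay close to the threshold. edgeR gave adjusted p values of 0.138 at 5%, 0.0896 at 10% RPS, and 0.0849 for the slope, and called none of the 6 genes, where it called 0.0566%, 0.323%, and 1.33% of all genes tested. When each mouse of the diets compared was left out in turn, the log2 fold change was 0.61 to 0.95 at 5% RPS, with 4 of 10 fits called, and 0.74 to 0.94 at 10% RPS, with 5 of 10 called. Of the 20 fits that omitted 1 mouse, 6 called the slope (adjusted p = 0.00540 to 0.148), namely without replicate 3 at 0%, replicate 5 at 2%, replicate 2, 3, or 5 at 5%, or replicate 1 at 10% RPS, and with TMM size factors its adjusted p was 0.0527. The call at 5% RPS was lost without replicate 2, 4, or 5 of the 0% RPS diet and without replicate 1, 2, or 3 of the 5% RPS diet (adjusted p up to 0.182, and 0.0812 without replicate 2 of the controls). The call at 10% RPS was lost without replicate 2, 4, or 5 of the 0% RPS diet and without replicate 4 or 5 of the 10% RPS diet (up to 0.0892, and 0.0636 without replicate 2 of the controls). About 2.84% of its 50-base windows are shared, with Sec1.

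The summed level of the 8 epithelial markers was 334102 ± 29223 (SD, n = 5) normalised counts at 0% RPS, 371788 ± 9045 at 5%, and 377176 ± 36484 at 10% RPS. None of the 8 was called in a comparison with 0% RPS, where at most 0.917% of all genes tested were called. In the trend, where 4.29% were called, 1 of the 8 was called, Epcam. Below the fold threshold, Krt20 had a log2 fold change of 0.45 at 5% and 0.47 at 10% RPS (DESeq2 adjusted p = 0.0476 and 0.0193), and Epcam 0.19 at 10% RPS (0.00666). With the mean log2 level of these markers as a covariate, the log2 fold change of Fut2 was 0.67 at 5% and 0.64 at 10% RPS and was no longer called (DESeq2 adjusted p = 0.379 and 0.362). That fit also called fewer genes in all, 27 instead of 113 at 10% RPS. With a smooth muscle score as the covariate, Fut2 was at 0.72 and 0.73 (adjusted p = 0.0850 and 0.0566). The correlation of the epithelial score with Fut2 over the 20 libraries was r = 0.48 and rho = 0.50 (permutation p = 0.0315 and 0.0252, adjusted over 12 tests 0.126 and 0.0930), and without the 2 libraries farthest from the median r was 0.33. The part of tissue composition in the result was not tested.

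Of markers of epithelial subtypes, 3 were called in the trend, a test that called 4.29% of all genes tested. The 5 absorptive colonocyte markers (Slc26a3, Car1, Car4, Aqp8, and Ceacam1) summed to 154344 to 445260 normalised counts without RPS, 376088 to 496190 with 5%, and 390496 to 593279 with 10% RPS. Car1 made up most of this sum. Ceacam1 was called at 10% RPS, and Ceacam1 and Car4 in the trend, while Slc26a3 and Aqp8 had log2 fold changes below 0 that were not called (−0.47 and −2.52 at 5%, −0.43 and −0.93 at 10% RPS). The 7 goblet cell markers summed to 484113 to 820665 without RPS and to 598644 to 1086050 with 10% RPS, and 1, Agr2, was called in the trend. No marker of muscle, fibroblasts, endothelium, adipocytes, macrophages, or B and plasma cells was called in these comparisons. The part of these markers in the levels of Fut2 was not tested.

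The remaining genes of fucosylation gave 0 calls among 9 analysed of 13 listed in each comparison with 0% RPS. At most 0.917% of all genes tested were called there. The median log2 fold change of the 9 was 0.09 at 5% and at 10% RPS. Fut4, another fucosyltransferase, was called in the trend, with a slope of 0.04 ± 0.01 (SE) on the log2 scale per percent of RPS (DESeq2 adjusted p = 0.0261). That test called 4.29% of all genes tested. Gmds, which makes the GDP-fucose that these enzymes use, was picked out after its values were seen, with a log2 fold change of 0.44 at 5% and at 10% RPS (adjusted p = 0.0270 and 0.0124), below the fold threshold.

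Saa1, a serum amyloid A that epithelial cells secrete, was the most abundant of the 6 genes per kilobase. It had 6299, 7630, 5077, 11567, and 10259 normalised counts without RPS and 8716, 8650, 8024, 6580, and 13196 with 2% RPS. It had 13669, 15293, 17989, 8526, and 11563 with 5% RPS and 9275, 11578, 9595, 13901, and 9484 with 10% RPS. The controls themselves ranged over 2.28-fold, and they overlapped with every diet. At 5% RPS 3 of 5 mice were above the highest control.

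The fold change of Saa1 was 1.64 at 5% RPS (95% interval 1.22 to 2.22, DESeq2 adjusted p = 0.0586) and 1.32 at 10% RPS (0.977 to 1.78, adjusted p = 0.307), so the mean was higher at 5% than at 10% RPS. It was called at 5% RPS in 2 of the 10 fits that left out a mouse, namely those that omitted replicate 4 at 0% RPS (adjusted p = 0.0261) or replicate 4 at 5% RPS (0.0114). The levels at 5 and 10% RPS did not differ beyond the spread, with a fold of 0.803 (0.595 to 1.08, adjusted p = 1). Saa1 shares 28.8% of its 50-base windows with Saa2 and Saa3, so part of its count may belong to these neighbours. Saa3 had a log2 fold change of 0.997 ± 0.392 (SE) at 5% RPS (adjusted p = 0.162) and 0.50 ± 0.39 at 10% RPS (0.492).

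**Figure D2:**
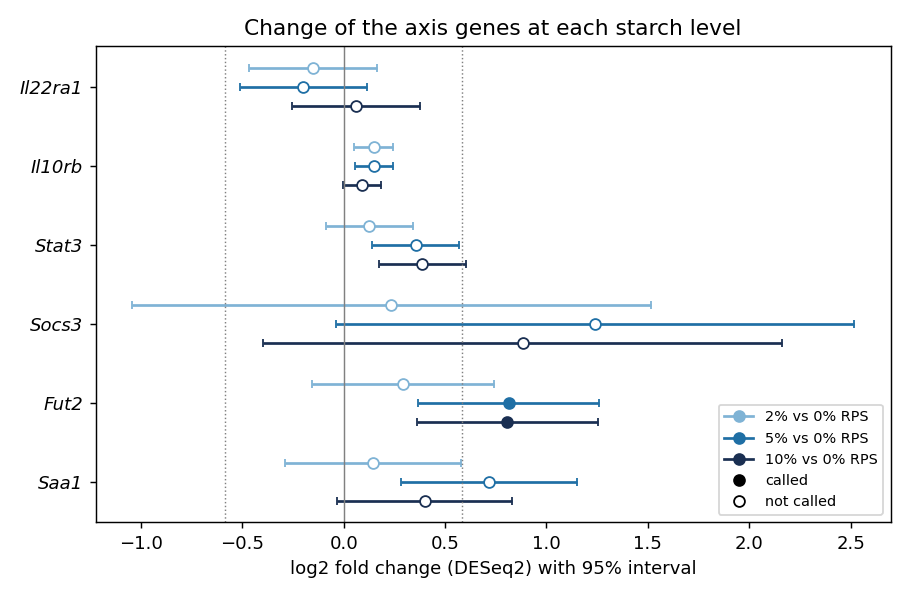
log2 fold change of the 6 genes (x axis, DESeq2) at 2, 5, and 10% RPS compared with 0% RPS. Bars are 95% intervals, filled points are called, and dotted lines mark a fold of 1.5. Fut2 at 5 and 10% RPS is filled, Stat3 at 10% RPS lies inside the dotted line, and the intervals of Socs3 are the widest.

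The starch levels were also compared with each other. None of the 6 genes was called between 2 and 5%, 2 and 10%, or 5 and 10% RPS, where 0%, 0.0557%, and 0.00796% of all genes were called. For Fut2 the level at 10% RPS was 0.996 times that at 5% (95% interval 0.730 to 1.36) and 1.43 times that at 2% RPS (1.05 to 1.95, DESeq2 adjusted p = 0.455). For Stat3 the same ratios were 1.02 (0.881 to 1.19) and 1.20 (1.03 to 1.39, adjusted p = 0.414). In the order of the diet means, no neighbouring diets were separated by the test for any of the 6 genes. The median log2 fold change of the 6 genes was 0.15, 0.54, and 0.39 at 2, 5, and 10% RPS compared with 0% RPS. These comparisons share the 0% RPS mice.

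The genes downstream of the receptor varied together over the 20 libraries, with the diets pooled. The permutations shuffled all libraries, so a difference between diets that 2 genes share enters these p values. Stat3 and Fut2 ranked the 20 libraries alike, with r = 0.90 and rho = 0.88 on log2 levels (permutation p = 1.0e-05 for both, the smallest that 100000 permutations can give, adjusted over 15 pairs of the axis 5.0e-05 and 7.5e-05). Without the 2 libraries farthest from the median of Stat3, r was 0.86, and it was 0.80 once the mean of each diet was removed. Fut2 and Saa1 were less alike, with r = 0.65 and rho = 0.62 (adjusted p = 0.00765 and 0.0129). Their r was 0.47 without the 2 farthest libraries and 0.46 with the mean of each diet removed. Stat3 and Saa1 had r = 0.58 and rho = 0.63 (adjusted p = 0.0229 and 0.0129). Their r was 0.46 without the 2 farthest and 0.34 with the mean of each diet removed.

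Because Socs3 fell into separate sets of 15 and 5 libraries, its relations were taken within the 15. There, Socs3 and Fut2 had r = 0.83 and rho = 0.85 (permutation p = 1.9e-04 and 1.5e-04, adjusted over 5 pairs 4.7e-04 and 6.7e-04), and r was 0.78 without the 2 farthest libraries. Socs3 and Stat3 had r = 0.81 and rho = 0.84 (adjusted p = 4.7e-04 and 6.7e-04), and r stayed at 0.81. Socs3 and Saa1 had r = 0.58 and rho = 0.47 (adjusted p = 0.0427 and 0.132). The cut came from the Socs3 values themselves, and the permutations shuffled the 15 with diets pooled. A difference between diets that 2 genes share thus enters these p values too. Over the 20 libraries, r of Socs3 was 0.88 with Fut2, 0.81 with Stat3, and 0.51 with Saa1. With the mean of each diet removed, these were 0.85, 0.74, and 0.30. That removal was not made within the 15. The receptor chains Il22ra1 and Il10rb gave r between −0.22 and 0.08 with Stat3, Fut2, and Saa1 over the 20 libraries, and no pair passed. Once the mean of each diet was removed, r of Il10rb was −0.44 with Stat3, −0.51 with Fut2, and −0.50 with Saa1, which was not tested.

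The 5 libraries with high Socs3 were not alike in their ranks for the other genes. Replicate 3 at 5% RPS was the highest of the 20 libraries for Stat3, Socs3, Fut2, and Saa1, and the lowest for Il22ra1. Replicate 2 at 5% RPS had rank 2 for Socs3, Fut2, and Saa1 and rank 3 for Stat3. Replicate 2 at 10% RPS had rank 3 for Socs3, 2 for Stat3, 4 for Fut2, and 6 for Saa1. Replicate 5 at 2% RPS had rank 4 for Socs3, 8 for Stat3, and 5 for Fut2 and Saa1. Replicate 3 at 0% RPS was different, with rank 5 for Socs3 and rank 9 for Fut2 but rank 15 for Stat3 and the lowest level of all for Saa1.

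**Figure D3:**
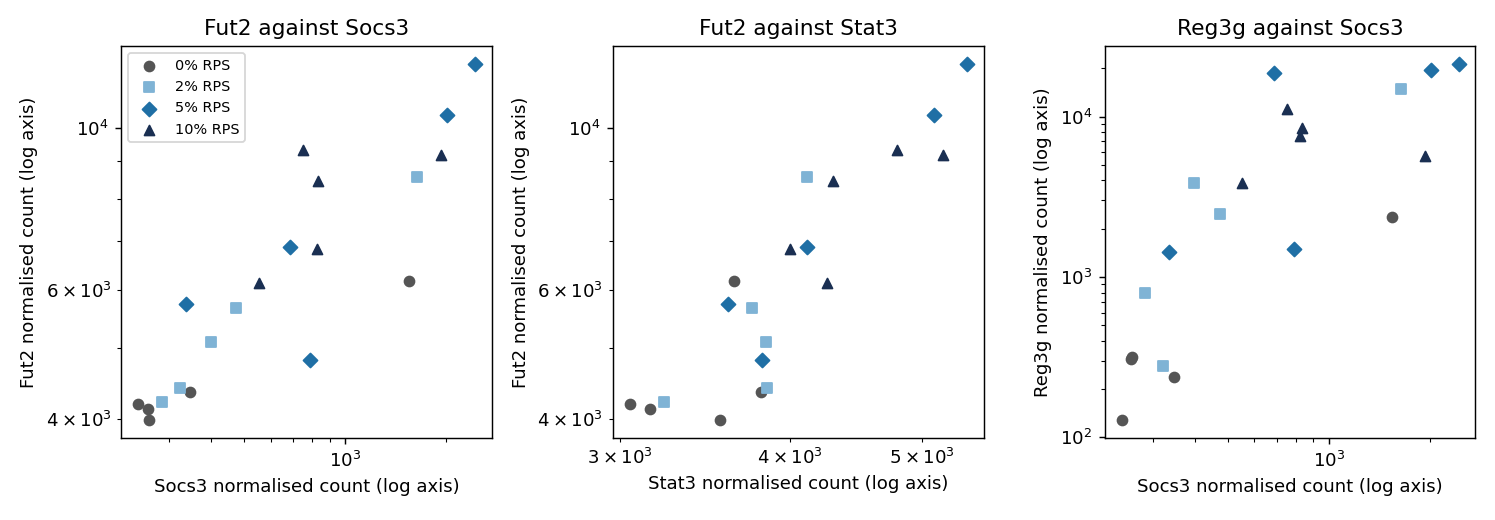
Normalised counts of Fut2 against Socs3, Fut2 against Stat3, and Reg3g against Socs3, with 1 point per library and log scales on both axes. Symbols give the diet. Fut2 rises with Stat3 across the diets (r = 0.90, n = 20), and the 0% RPS library far to the right for Socs3 is replicate 3.

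The other listed targets of IL-22 and STAT3, a longer list, gave more calls than the 6 genes, all upward. This list was drawn up with results of these data known, so its direction is not independent evidence. Of 27 listed, 19 were analysed, and 0, 7, and 5 were called at 2, 5, and 10% RPS. Among all genes tested, 0.0239%, 0.438%, and 0.917% were called. The median log2 fold change of the 19 targets was 0.17, 0.54, and 0.47, beside −0.01, −0.01, and 0.00 over all genes. edgeR called 0, 0, and 1 of the 19 (Duox2 at 10% RPS, adjusted p = 0.0385). It called 0.0566% of all genes tested at 5% and 0.323% at 10% RPS.

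Among the targets, the Reg3 genes, which encode antimicrobial lectins, moved the most, and their values are given beside those of Socs3. Reg3g had 316, 239, 2362, 308, and 128 normalised counts without RPS and 3871, 2471, 279, 798, and 14926 with 2% RPS. It had 18701, 19545, 21349, 1425, and 1490 with 5% RPS and 3852, 5691, 7613, 8542, and 11165 with 10% RPS. The highest control (replicate 3) and the highest mouse on 2% RPS (replicate 5) were those that were also highest for Socs3. The log2 fold change of Reg3g was 4.22 ± 0.98 (SE) at 5% and 3.46 ± 0.98 at 10% RPS (DESeq2 adjusted p = 0.00481 and 0.0190, edgeR 0.106 and 0.0918).

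Reg3b had a log2 fold change of 4.71 ± 0.90 (SE) at 5% and 4.06 ± 0.90 at 10% RPS. Every mouse on these diets was above every control, a separation that was not counted over all genes. Reg3a, at 1.04 to 122 normalised counts, had 2.17 ± 0.51 and 2.13 ± 0.51. Duox2, an oxidase that releases hydrogen peroxide at the epithelial surface, rose 2.37-fold and 2.39-fold (DESeq2 adjusted p = 0.0119 and 0.00518). Its partner Duoxa2 rose 3.65-fold and 3.74-fold (0.0394 and 0.0190). Bcl3, a regulator of NF-kB, and Lrg1, an acute-phase glycoprotein, were called at 5% RPS alone, with folds of 1.69 and 1.94, and at 10% RPS they were at 1.47 and 1.39. The difference between these 2 diets was not called for either. When each mouse was left out in turn, Duox2 was called in 6 of 10 fits at 5% RPS and in 10 at 10% RPS. Duoxa2 was called in 4 and 6 of 10. At 5% RPS, Bcl3 was called in 6 and Lrg1 in 4 of 10 fits. With the epithelial score as a covariate, the calls of Duox2, Duoxa2, Bcl3, and Lrg1 were lost (DESeq2 adjusted p = 0.168 to 0.484). Of the windows of Duoxa2, 41.1% are shared, chiefly with Duoxa1, and of those of Lrg1 63.1%, with Gm56918 and other genes.

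The other 12 targets were not called at 5% or 10% RPS. They include the acute-phase genes C3 and Steap4, the cell-cycle and survival genes Ccnd1, Myc, Mcl1, Bcl2l1, and Pim1, and Retnlb, a goblet cell product with a log2 fold change of −1.79 at 10% RPS (DESeq2 adjusted p = 0.265). Muc4, a membrane mucin, was called in the trend, with a slope of 0.07 on the log2 scale per percent of RPS (adjusted p = 0.0278). That test called 4.29% of all genes tested.

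**Figure D4:**
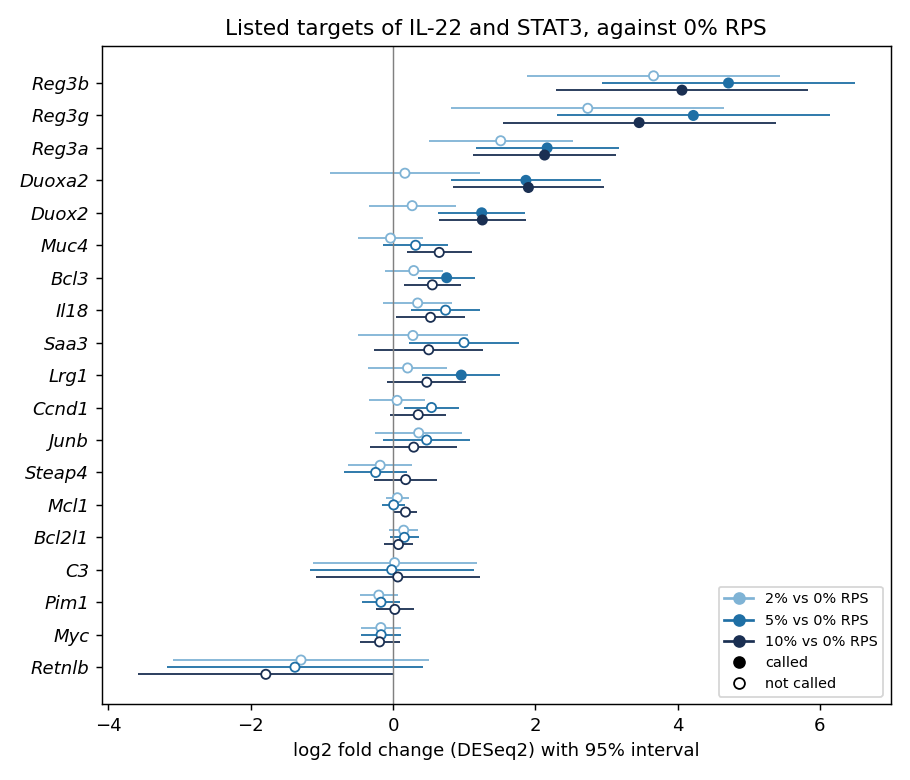
log2 fold change (x axis, DESeq2) of the 19 analysed targets outside the 6 genes at 2, 5, and 10% RPS compared with 0% RPS, with 95% intervals and filled points for calls. The 3 Reg3 genes and the pair Duox2 and Duoxa2 are filled at both 5 and 10% RPS, and Bcl3 and Lrg1 at 5% RPS alone.

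Upstream of the receptor, 4 of 17 listed genes were analysed. Thy1 was the 1 marker analysed of the 8 listed for T cells and innate lymphocytes, so it cannot stand for these cells. It had 345 to 629 normalised counts in the 20 libraries, with a median of 518 without RPS and 483 with 10% RPS. Ahr, a receptor for dietary and microbial ligands that lymphocytes use to make IL-22, had a log2 fold change of −0.13 at 10% RPS (adjusted p = 0.597).

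Nos2 itself was not analysed here. Of 10 genes around nitric oxide and arginine, 8 were analysed. They gave no call in any comparison with 0% RPS or in the trend, where at most 4.29% of all genes tested were called. The nitric oxide synthases of nerve and endothelium, Nos1 and Nos3, had log2 fold changes of −0.30 and −0.24 at 10% RPS (DESeq2 adjusted p = 0.275 and 0.409). Arg2, an arginase that competes for the same substrate, had 0.63 (0.380). Gch1, which makes the cofactor of these synthases, had 0.47 at 5% and 0.49 at 10% RPS (0.132 and 0.0827).

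The genes most like each of the 6 over the 20 libraries were sought among the 12341 genes whose mean normalised count reached 10, by Pearson's r of log2 levels, which is a description. Socs3 was most like Tifa (r = 0.94), Ptk6 (0.93), and Sbno2 (0.92). With the mean of each diet removed these were 0.92, 0.91, and 0.90. Tifa is an adaptor of innate immune signalling, and Ptk6 is a tyrosine kinase of epithelial cells. Tifa, too, was high in replicate 3 at 0% RPS, with 2020 normalised counts against 862 to 1108 in the other controls.

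Fut2 was most like Zdhhc13 (r = 0.93), Cd38 (0.92), and Gda (0.91). Stat3 was most like Rdh16 (0.92), Bcl3 (0.91), and Plekhm1 (0.91), of which Bcl3 is among the listed targets. The pattern of Saa1 was nearest to Rnf19b, Uba7, and Parp12 (0.84, 0.84, and 0.83). Uba7, the activating enzyme of ISG15, and Parp12 are known as interferon-induced genes. The receptor chains had weaker partners, Gm16172, Cep170b, and Ubn1 for Il22ra1 (0.80, 0.75, and 0.75) and Zfp622, Mgat4b, and Adipor1 for Il10rb (0.84, 0.84, and 0.83).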

How the data were processed

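RNA from whole proximal colon was prepared with a stranded mRNA kit and sequenced by the authors as single-end reads of 50 bases. Per the study's methods, the authors removed bases below Q30 and reads with more than 2 ambiguous bases and mapped the rest to GRCm39 in CLC Genomics Workbench. The deposited table holds the authors' whole-number counts per Ensembl gene, not normalised and not pooled. The annotation used, the treatment of strand, and that of reads with several matches are not given in the sources used here.

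Diets were taken from the labels, columns were matched to libraries by label number, and replicates were numbered in accession order. All 20 columns were used. Where nothing states that the mice were from separate litters or cages, p-values measure the spread between these mice. Symbols and coordinates came from GENCODE M39 (12682 of 12701 identifiers matched), and 12 rows whose symbol belongs to more than 1 identifier were left out of the lists.

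Counts were tested in R (version 4.3.3) with DESeq2 (version 1.42.0), using 1 fit with diet as the term, as Wald tests with Benjamini-Hochberg adjustment over all genes. The trend used the percentage of RPS as a number with no fold threshold. edgeR (version 4.0.16, TMM factors, quasi-likelihood test) was the alternative. Both were also run on simulated counts with the same spread for every gene. The genes here differed widely in spread, so that run is no test of their calls. Adjusted p values are from DESeq2 unless edgeR is named. Correlations used log2(normalised count + 1) with permutation tests, two-sided, and 15 pairs of genes were computed. To see which reads could be shared, every 50-base window of a gene's transcripts was looked up in the transcripts of all other genes.

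The genes, the lists, and the tests were chosen with earlier results of these data known. Named are the 7 listed genes, Il22, Il22ra2, Saa2, and Saa3 where analysed, every gene of the pathway lists called at 5 or 10% RPS, and the 3 genes most like each member. Some results that this rule covers are not reported here. The lists cover the supply of IL-22, receptors and JAK-STAT kinases, feedback, targets, fucosylation, nitric oxide and arginine, and cell type markers. Alternatives were edgeR, TMM factors as size factors, a minimum of 10 counts in 5 libraries, no independent filtering, no fold threshold or one of 2, only the diets compared, marker scores as covariates, and omission of libraries.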

Additional observations from a re-analysis of the deposited data

Results flagged for a closer look

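Each diet of each of the 16 genes followed by library was examined for a mouse far from the other 4. Of 64 such groups, 14 held one. A rate of about 1 in 20 by chance would hold for independent groups of normally distributed values. These groups are counts of genes that vary together in the same mice, so 14 of 64 is a description.

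Socs3 stood out in 3 diets. Replicate 3 at 0% RPS had 1546 normalised counts, against 242 to 346 in the other controls. Replicate 5 at 2% RPS had 1642, against 285 to 474, and replicate 2 at 10% RPS had 1932, against 553 to 832. Fut2 was highest among the controls in the same replicate 3, with 6166 against 3977 to 4349. That library was also the highest control for Reg3b (8324 against 553 to 2261) and Reg3g (2362 against 128 to 316).

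Replicate 5 at 2% RPS was the highest of its diet for Saa3 (715.8, the others 297 to 348), Reg3a (117, the others 16.3 to 40.8), Reg3b (127115, the others 1723 to 25600), Reg3g (14926, the others 279 to 3871), and Duox2 (4581, the others 2292 to 2804). Its label number, like those of 2 libraries at 10% RPS, is outside the run that the rest form. Replicate 2 at 0% RPS was the lowest control for Saa3 (89.6, the others 349 to 444) and Reg3a (1.04, the others 17.6 to 22.8). Replicate 4 at 2% RPS was the lowest of its diet for Bcl3 (794, the others 1201 to 1255).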

How the results depend on the processing

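No paired analysis was possible because replicate numbers follow accession order and tie no mouse of one diet to a mouse of another. The counts below are of genes called. For the 6 axis genes at 5% RPS (1 called), edgeR, an epithelial or smooth muscle covariate, and a fold threshold of 2 each gave 0, and leaving out the 3 libraries outside the label run gave 2 (Fut2 and Saa1). At 10% RPS (1 called), these same settings each gave 0, the 3 libraries included, and no fold threshold gave 2. In the trend (2 called), edgeR, the epithelial covariate, and the fit without 0% RPS gave 0, and TMM factors gave 1. Leaving out each mouse gave 0 to 2 in each of these. The other settings, listed above, gave the same counts.

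For the 58 pathway genes, edgeR gave 0 at 5%, 1 at 10% RPS, and 1 in the trend (7, 6, and 6 called), and the epithelial covariate gave 0 in all of these. The fit of only the diets compared gave 3 at 5% RPS, and 2 between 2 and 10% RPS. The fit without the 3 libraries gave 3 at 10% RPS, that without 0% RPS gave 2 in the trend, and the smooth muscle covariate gave 1 at 2% RPS. Leaving out each mouse gave 0 to 2 at 2% RPS, 2 to 10 at 5%, 3 to 10 at 10%, 0 to 1 between 2 and 10%, and 2 to 10 in the trend. The lowest count at 5% RPS came without replicate 2 of that diet and the highest without replicate 2 of the controls.

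For the cell type markers, no fold threshold gave 1 at 5% and 4 at 10% RPS (0 and 1 called). Both covariates, a fold threshold of 2, and omission of the 3 libraries gave 0 at 10% RPS. In the trend (4 called), edgeR and omission of the 3 libraries gave 1, the epithelial covariate 2, and the fit without 0% RPS 0. Leaving out each mouse gave 0 to 1 at 2 and 5%, 0 to 4 at 10% RPS, and 1 to 9 in the trend.

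Reversed signs were all in changes that were not called. Without the 3 libraries, the log2 fold change at 2% RPS was −0.52 for Socs3, −0.032 for Saa1, −0.039 for Saa3, −0.0019 for Lrg1, and −0.23 for Duoxa2, that of Il22ra1 at 10% RPS was −0.023, and the slope of Il22ra1 was −0.0037. With the epithelial covariate, Socs3 (−0.086), Lrg1 (−0.058), and Duoxa2 (−0.10) reversed at 2% RPS, and without 0% RPS the slope of Il10rb was −0.0077. Leaving out each mouse gave, at 2% RPS, −0.52 to 1.18 for Socs3, −0.032 to 0.30 for Saa1, −0.039 to 0.41 for Saa3, −0.0019 to 0.30 for Lrg1, −0.23 to 0.65 for Duoxa2, and, for Il22ra2 at 5% RPS, −0.050 to 0.33. Il22ra1 ranged from −0.036 to 0.17 at 10% RPS, and its slope from −0.0019 to 0.018. The cause was not tested for any of these changes.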
